A study of Homo sapiens with 16 samples.

Results

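The 9 epithelial junction genes CDH1, EPCAM, CLDN4, CLDN7, OCLN, DSP, JUP, ESRP1 and GRHL2 were chosen by symbol among the 23709 genes counted in each of 16 libraries, and all 9 were found. The libraries came from H1299, a human non-small cell lung carcinoma line, and HBE, a human bronchial epithelial line that the labels give as epithelial lung cells, both at passage 15 to 18. H1299 cells had been transfected by a lipid reagent with a pCMV plasmid for Flag-tagged FLII (called FLII overexpression here) or with the empty plasmid (vector). HBE cells carried stable lentiviral short hairpin RNA against FLII (FLII knockdown) or the control named NC. FLII, the flightless I protein, is related to gelsolin and acts on actin filaments. From each group polyA RNA was sequenced once from whole-cell mRNA, cytosol, nuclei and the ribosome-nascent chain complex (RNC), which was pelleted through sucrose after cycloheximide. Each group is therefore 1 library with no replicate. The lines and the nuclear and cytosol fractions were also tested with both FLII groups of a line in 1 fit; FLII itself was compared without a test between groups.

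Epithelial cells hold to each other through 3 kinds of junction. Adherens junctions join neighbouring actin belts through cadherins, tight junctions seal the space between cells through claudins and occludin, and desmosomes anchor keratin filaments through desmosomal cadherins and plaque proteins. When epithelial cells take on mesenchymal features, repressors of the ZEB, SNAI and TWIST families bind E-box motifs in the promoters of several of these genes, while grainyhead and ESRP proteins maintain the epithelial programme. CDH1 encodes E-cadherin, the main cadherin of epithelial adherens junctions. EPCAM encodes an epithelial surface adhesion protein that binds claudin-7. CLDN4 and CLDN7 encode claudins, and OCLN encodes occludin. DSP encodes desmoplakin, which ties the desmosome to keratin, and JUP encodes plakoglobin, found in desmosomes and adherens junctions. ESRP1 encodes an epithelial splicing regulator, and GRHL2 a grainyhead transcription factor that drives CDH1 and claudin genes.

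Promoter sequence was used for CLDN4, CLDN7, OCLN, DSP and JUP only. Shown are 4 windows, because the line difference described below splits these genes into those lower in H1299 and OCLN. Each is the 250 bases before a RefSeq transcription start (RefSeq, build GRCh38.p14, read on the gene's strand). Capitals mark CACCTG, the E-box bound by ZEB and SNAI factors, or CAGGTG, its reverse complement. The CLDN7 window is chr17:7262479-7262728 (minus strand), before the second of 2 listed starts. The DSP window is chr6:7541421-7541670 (plus strand), the CLDN4 window chr7:73830746-73830995 (plus strand) and the OCLN window chr5:69492297-69492546 (plus strand, the first listed start).
CLDN7: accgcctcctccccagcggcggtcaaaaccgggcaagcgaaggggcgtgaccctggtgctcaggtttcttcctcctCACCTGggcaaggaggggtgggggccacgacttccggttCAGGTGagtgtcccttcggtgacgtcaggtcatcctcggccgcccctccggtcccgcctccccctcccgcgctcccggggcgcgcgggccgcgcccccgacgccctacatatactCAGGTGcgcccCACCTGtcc
DSP: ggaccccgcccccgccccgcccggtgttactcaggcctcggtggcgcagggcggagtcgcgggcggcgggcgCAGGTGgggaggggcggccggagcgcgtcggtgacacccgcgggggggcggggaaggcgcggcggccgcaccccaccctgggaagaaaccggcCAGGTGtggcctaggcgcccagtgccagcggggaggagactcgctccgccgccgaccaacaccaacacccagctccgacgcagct
CLDN4: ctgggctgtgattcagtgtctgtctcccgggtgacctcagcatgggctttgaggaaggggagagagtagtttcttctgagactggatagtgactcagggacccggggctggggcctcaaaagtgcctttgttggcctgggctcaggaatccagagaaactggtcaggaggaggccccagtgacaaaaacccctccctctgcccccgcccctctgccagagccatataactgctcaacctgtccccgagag
OCLN: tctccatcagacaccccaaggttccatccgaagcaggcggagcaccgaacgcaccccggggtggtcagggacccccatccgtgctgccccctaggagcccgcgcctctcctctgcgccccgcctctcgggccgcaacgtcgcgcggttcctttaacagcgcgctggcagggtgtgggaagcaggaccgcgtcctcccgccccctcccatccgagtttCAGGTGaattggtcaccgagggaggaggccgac

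The CLDN7 window held 4 matches to CACCTG on either strand, the nearest ending 4 bases before the start. The DSP window held 2 matches, the OCLN window 1 and the CLDN4 window 0. Of the other windows scanned, the first CLDN7 start and the first JUP start held 0, the second OCLN start held 1 and the second JUP start held 2. Over 35116 RefSeq windows of the same length, 17.5% held at least 1 match and 2.53% held 2 or more. The grainyhead motif AACCGGTT matched in 0 of the 8 windows of these genes and in 0.117% of all windows; it reads the same on both strands and overlaps no CACCTG match. A match says only that these letters stand in the window, and which start each line used was not measured.

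Gene reads totalled 5943676 to 8344359 in mRNA, 5914489 to 9259569 in cytosol, 6295282 to 8201848 in nuclear and 26711771 to 38514467 in RNC libraries. FLII, the targeted gene, followed the labels outside RNC: it was 4.42-fold, 3.15-fold and 3.64-fold higher with overexpression in H1299 mRNA, cytosol and nuclear RNA, and 5.99-fold, 7.68-fold and 7.87-fold lower with knockdown in the same fractions of HBE. By FLII or keratin reads, 2 of the 4 RNC libraries went against their labels. The one labelled H1299 FLII overexpression held 18.5-fold less FLII than the one labelled vector, together with 153930 KRT17 and 9515 KRT5 reads, the keratins of basal airway cells. The one labelled HBE FLII knockdown held 1 KRT5 read and 48 KRT17 reads. The one labelled H1299 vector, with 14625 FLII, 0 KRT5 and 18 KRT17 reads, followed its label by these genes. The one labelled HBE NC held 7165 KRT5 and 31276 KRT17 reads, and also 14888 reads of VIM, the mesenchymal filament gene. In RNC, VIM did not follow the line labels. It stood at 25.9 RPKM under the label H1299 FLII overexpression and 69.0 RPKM under the label vector. Under the labels HBE FLII knockdown and HBE NC it stood at 143 and 204 RPKM. RNC values are therefore given apart, by label. VIM stood at 2949 RPKM in H1299 vector mRNA, against 2.77 RPKM in HBE NC mRNA, where KRT17 stood at 2107 RPKM.

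Levels per transcript length are given in RPKM, reads scaled to transcript length and to the gene reads of the library. In HBE the plaque gene JUP and the claudins were the highest of the 9, and OCLN the lowest; in H1299 mRNA and nuclear RNA the 3 highest were JUP, OCLN and CLDN4.

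CDH1 had 0.274 RPKM in FLII overexpression and 0.314 RPKM in vector H1299 mRNA, against 47.5 RPKM in FLII knockdown and 49.96 RPKM in NC HBE mRNA. In nuclear RNA it had 0.0968 and 0 RPKM in the same H1299 groups, against 21.8 and 16.7 RPKM in the same HBE groups. All 4 H1299 values lay far below all 4 HBE values, and the library at 0 held no CDH1 read. In cytosol the levels were close to the limit of counting in both lines, at 0.299 RPKM in FLII overexpression (9 reads), 0.0449 RPKM in vector (2 reads), 0.662 RPKM in FLII knockdown (21 reads) and 0.562 RPKM in NC cells (16 reads).

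EPCAM had 0.558 RPKM in FLII overexpression and 0.979 RPKM in vector H1299 mRNA, against 108 RPKM in FLII knockdown and 114 RPKM in NC HBE mRNA. Its nuclear levels were 0.362 and 0.740 RPKM in the same H1299 groups, against 105 and 99.7 RPKM in the same HBE groups. The lines did not overlap, and HBE nuclei held about as much EPCAM on this relative scale as whole HBE cells. HBE cytosol held far less, 9.02 RPKM with knockdown and 8.76 RPKM in NC cells.

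CLDN7 was the gene with the widest gap between the lines in mRNA. It had 0.239 RPKM in FLII overexpression and 1.005 RPKM in vector H1299 mRNA, against 167 RPKM in FLII knockdown and 206 RPKM in NC HBE mRNA. Nuclear RNA held 0.232 and 0.395 RPKM in those H1299 groups, against 364 and 389 RPKM in those HBE groups. In cytosol the FLII overexpression library stood above the vector library, at 4.62 and 0.376 RPKM, and both stood below the 145 and 153 RPKM of knockdown and NC HBE cytosol.

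CLDN4 had 1.97 RPKM in FLII overexpression and 3.23 RPKM in vector H1299 mRNA, against 168 RPKM in FLII knockdown and 158 RPKM in NC HBE mRNA. Over the 6 H1299 libraries outside RNC it ran from 1.97 to 6.68 RPKM, the highest in FLII overexpression cytosol, and all lay below the HBE libraries, the lowest of which was NC cytosol at 82.9 RPKM.

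OCLN was the exception. It had 3.74 RPKM in FLII overexpression and 4.31 RPKM in vector H1299 mRNA, against 2.96 RPKM in FLII knockdown and 2.89 RPKM in NC HBE mRNA. Nuclear RNA held 5.38 and 5.13 RPKM in those H1299 groups, against 1.86 and 1.29 RPKM in those HBE groups, and cytosol held 2.44 and 2.53 RPKM, against 0.660 and 0.341 RPKM. Within each of these fractions H1299 was the higher line, but across them the lines overlapped, since HBE mRNA stood above H1299 cytosol.

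DSP had 1.49 RPKM in FLII overexpression and 1.57 RPKM in vector H1299 mRNA, against 78.3 RPKM in FLII knockdown and 105 RPKM in NC HBE mRNA. HBE cytosol held only 1.79 RPKM with knockdown and 1.93 RPKM in NC cells, so there the HBE libraries came close to the H1299 mRNA level without overlapping it. JUP had 5.36 RPKM in FLII overexpression and 6.23 RPKM in vector H1299 mRNA, against 268 RPKM in FLII knockdown and 271 RPKM in NC HBE mRNA. JUP was the highest of the 9 genes in H1299 mRNA and in HBE mRNA alike.

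Both regulators were near the limit of counting in H1299. ESRP1 had 8 reads (0.252 RPKM) in FLII overexpression and 11 reads (0.486 RPKM) in vector H1299 mRNA, against 36.6 RPKM in FLII knockdown and 32.1 RPKM in NC HBE mRNA. GRHL2 had 2 reads (0.0458 RPKM) in FLII overexpression and 4 reads (0.129 RPKM) in vector H1299 mRNA, against 15.5 RPKM in FLII knockdown and 13.5 RPKM in NC HBE mRNA. In H1299 nuclei GRHL2 had 1 read in each library, against 372 and 324 reads in FLII knockdown and NC HBE nuclei. Several of these genes have a partner whose reads the counting may not separate: OCLN and CLDN7 have pseudogene copies and DSP an antisense neighbour, and use of strand is not stated.

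**Figure D1:**
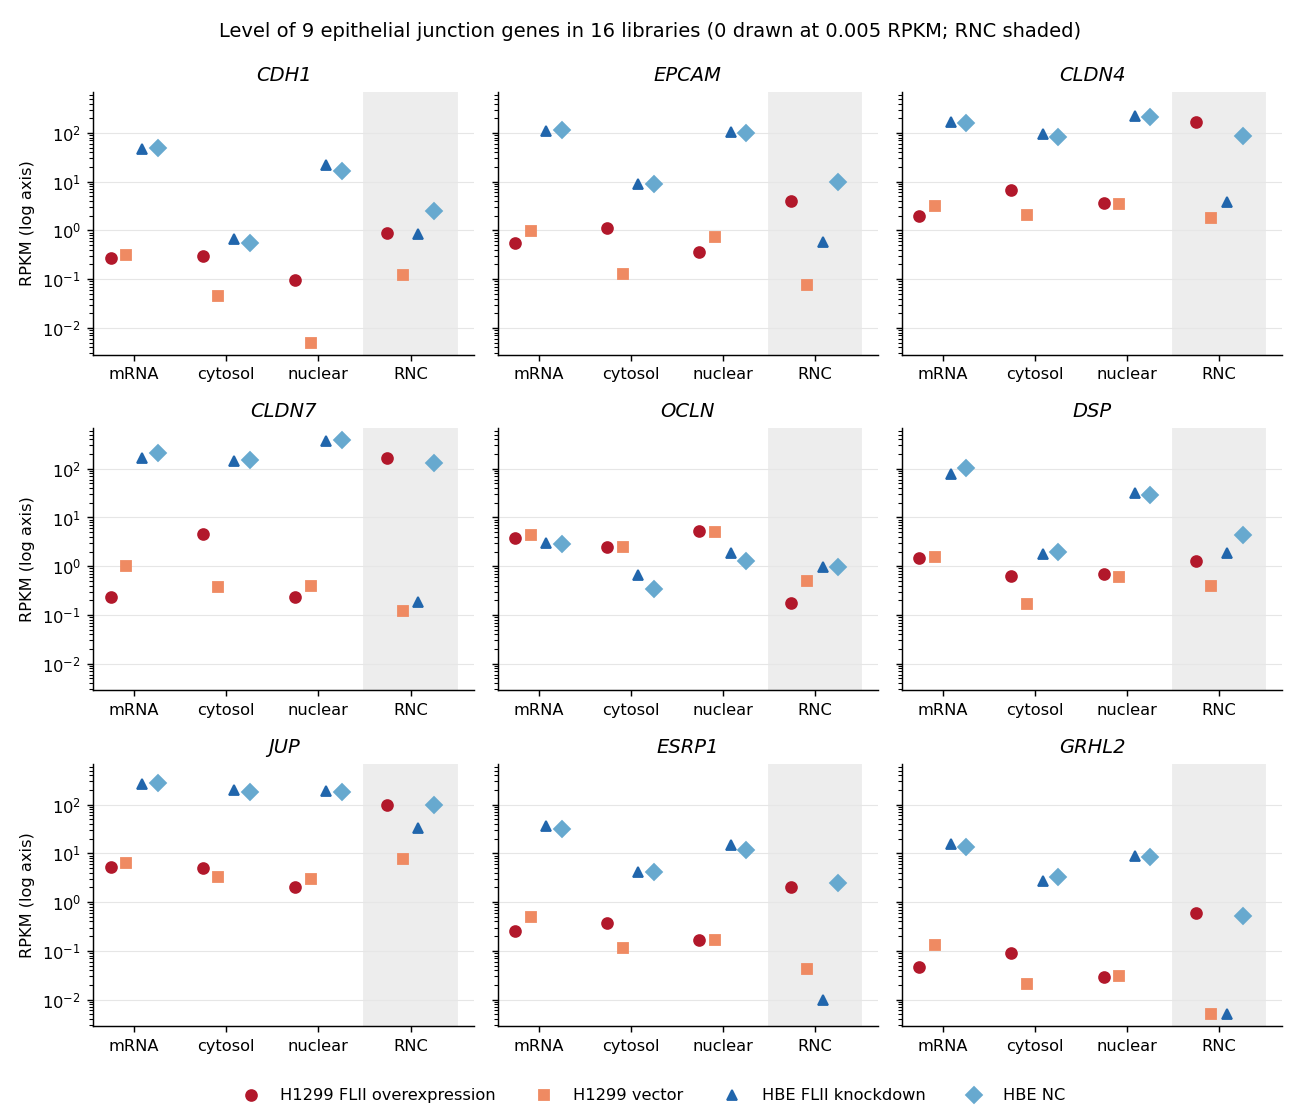
Level of each gene (RPKM, log axis) in the 16 libraries, by RNA fraction. Each point is 1 library, and RNC, where 2 of 4 libraries went against their labels by FLII or keratin reads, is shaded. In mRNA and nuclear RNA every gene but OCLN sits far lower in both H1299 libraries than in both HBE libraries, and CDH1 is at 0 in H1299 vector nuclear RNA.

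The line contrast set H1299 vector over HBE NC within a fraction. Counts were scaled by trimmed mean of M values (TMM), and a gene with at least 20 reads over the pair was called when it differed at least 2-fold with a 95% interval that excluded equal levels; this exact binomial interval covers counting error only. In mRNA 8 of the 9 genes were lower in H1299 and OCLN was not called, while 22.4% of 13403 genes were called lower. CLDN7 was 237-fold lower (log2 fold -7.89, interval -8.90 to -7.14; 12 reads in H1299, 3420 in HBE) and CDH1 182-fold lower (log2 fold -7.51, interval -8.71 to -6.65; 9 and 1991 reads). The other 6 were 52.2-fold (JUP) to 134-fold (EPCAM) lower, with DSP at 79.6-fold on 91 and 8429 reads. OCLN had a log2 fold of 0.31, with an interval of -0.01 to 0.64. The median of the 9 was -6.31, beside -0.01 over all genes tested.

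In nuclear RNA the same 8 genes were lower in H1299, where 23.1% of genes were called lower, and OCLN was higher by a log2 fold of 1.74 (interval 1.33 to 2.18), where 22.3% were called higher. CDH1 had 0 reads in H1299 nuclei and 590 in HBE nuclei, at least 200-fold lower against a floor of 3 counts per library. CLDN7 had 5 reads in H1299 nuclei and 5735 in HBE nuclei (log2 fold -10.05, interval -11.81 to -8.96). In cytosol 7 genes were lower (22.2% of genes called lower) and OCLN was higher by 2.39 (interval 1.61 to 3.37; 26.7% called higher), while CDH1, with 18 reads over the pair, was not tested. DSP showed a log2 fold of -3.94 in cytosol, against -6.31 in mRNA and -5.78 in nuclear RNA. Bulk RNA cannot tell fewer cells of a type apart from less RNA per cell.

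**Figure D2:**
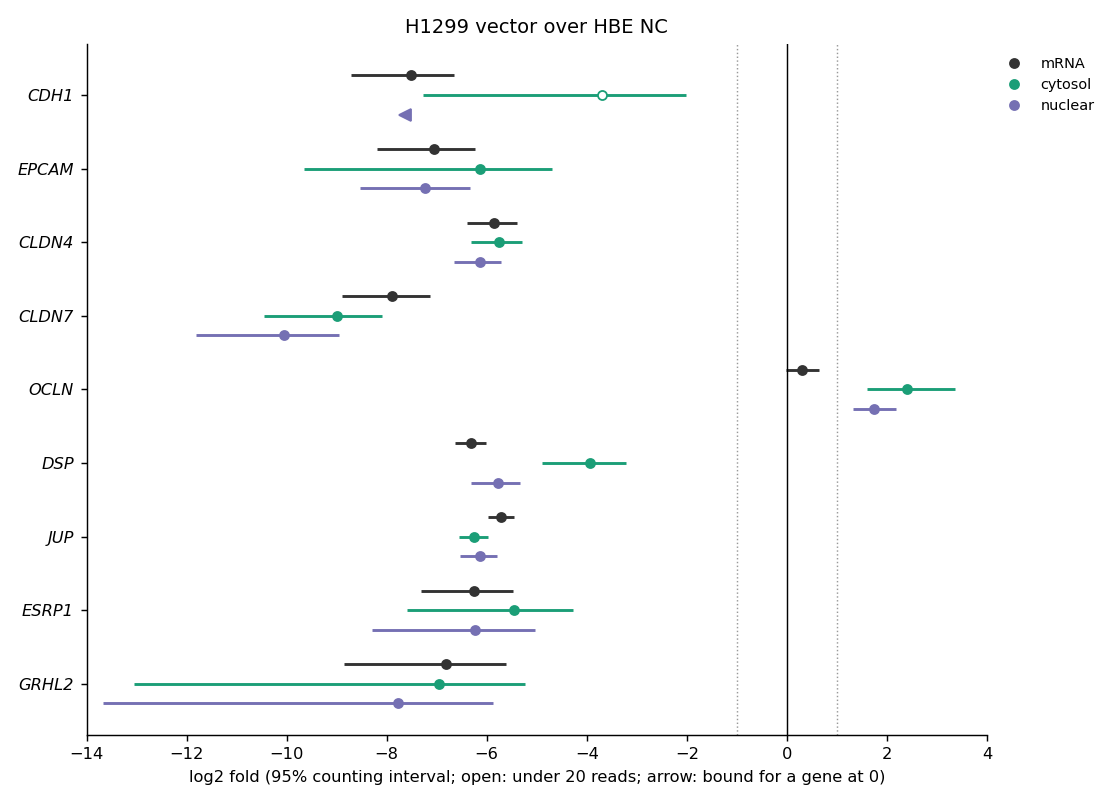
Log2 fold of H1299 vector over HBE NC (horizontal axis) for each gene in mRNA, cytosol and nuclear RNA, with 95% counting intervals; dotted lines mark a 2-fold difference, the open point (CDH1 in cytosol) was not tested, and the arrow is the bound for CDH1, which had 0 reads in H1299 nuclei. All genes but OCLN lie left of a 2-fold difference, and OCLN lies at 0.31 in mRNA, 2.39 in cytosol and 1.74 in nuclear RNA.

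Over the 12 libraries outside RNC, 8 of the 9 genes had every H1299 library below every HBE library, a pattern that 10.8% of 16068 genes showed. None of the 9 had every H1299 library above every HBE library, which 15.7% of genes showed. Using H1299 FLII overexpression in place of vector, or HBE FLII knockdown in place of NC, left the same 8 mRNA calls. With both FLII groups of each line as its samples, edgeR's quasi-likelihood test over these 12 libraries called the same 8 genes lower in mRNA, with adjusted p-values of at most 1.51e-09 (20.2% of genes called lower). In nuclear RNA it called those 8 lower (22.1%) and OCLN higher by 1.52 (25.2%), with adjusted p-values of at most 3.44e-06. In cytosol it called 8 lower (20.5%), CDH1 among them (-2.40, edgeR adjusted p = 0.00145), and OCLN higher by 1.93 (26.4%). OCLN in mRNA was not called (0.30, edgeR adjusted p = 0.154). The fit needed an adjusted p below 0.05 and a 2-fold difference, and its spread is that between FLII groups, which were treated differently and whose fractions may share cells.

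Basal keratin reads set a scale for the lowest H1299 values. Of HBE NC levels in the same fraction, KRT5 stood at 0.207% in FLII overexpression mRNA and 0.607% in vector mRNA, and the median of the 10 airway basal markers at 0.199% and 0.628%. CLDN7 stood at 0.116% and 0.489% in those libraries, CDH1 at 0.548% and 0.629%, EPCAM at 0.490% and 0.861%, and GRHL2 at 0.340% and 0.954%. CLDN7 lay below the basal marker median in both libraries, and the other 3 lay at or above it. ESRP1 stood at 0.785% and 1.51%, DSP at 1.42% and 1.50%, CLDN4 at 1.25% and 2.05%, and JUP at 1.98% and 2.30%. The summed level of the basal markers was 3.49% in FLII overexpression mRNA and 4.35% in vector mRNA, with KRT6A and KRT14 at 0 in the overexpression library and KRT14 at 0 in the vector library. The part of HBE-type transcripts in the low H1299 values was not tested.

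**Figure D3:**
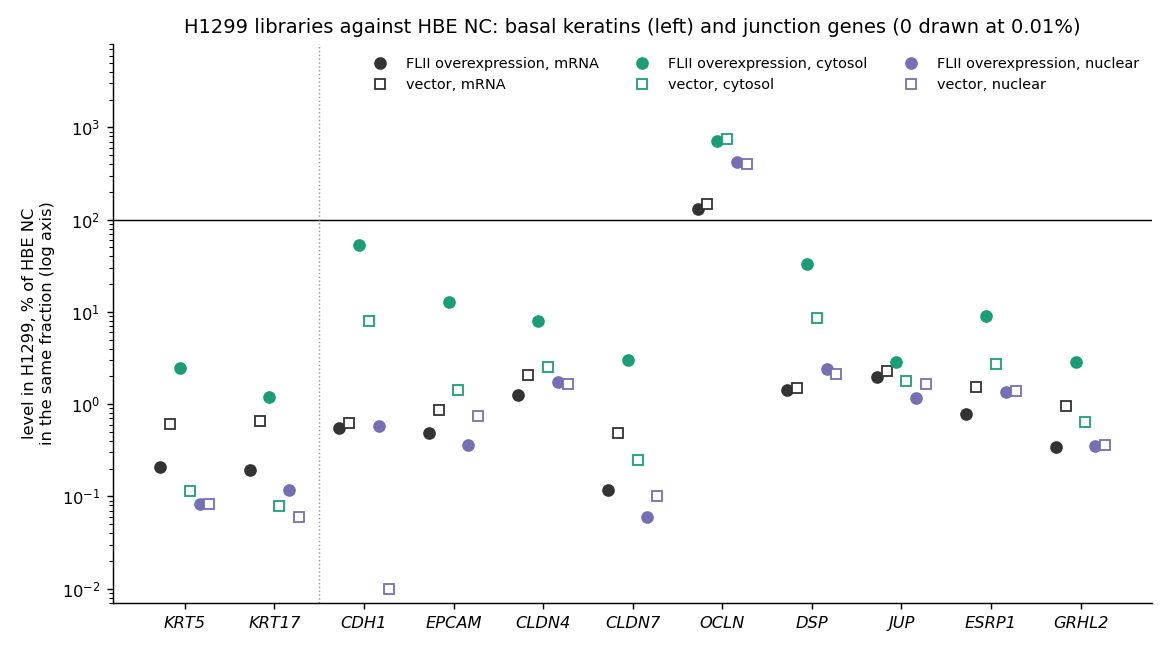
Level of 2 basal keratins and the 9 junction genes in each H1299 library outside RNC, as a percentage of HBE NC in the same fraction (log axis; filled points, FLII overexpression; open squares, vector). OCLN alone lies above 100%, and in cytosol the FLII overexpression library lies above the vector library for both keratins and for every gene but OCLN.

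Other genes of the junctions were read from lists of the pathway, in the same mRNA contrast (22.4% of genes called lower, 21.2% higher). Of 13 tight junction genes 6 were lower in H1299 and 1 was higher, the lower ones including the scaffold TJP3 (log2 fold -4.27) and the adhesion molecule F11R (-3.28). Of 10 tested desmosome genes 9 were lower, among them the plaque gene PKP3 (-5.12) and the cadherin DSG3 (-4.67), and PKP4 was higher (1.01). Of 10 adherens junction genes 5 were lower, led by P-cadherin CDH3 (-8.79; 6 reads in H1299, 3314 in HBE), and 4 were higher, among them the actin linkers MLLT4 (1.88) and VCL (1.54). List medians were -0.76 for tight junctions, -2.73 for desmosomes and -0.996 for adherens junctions. In cytosol (22.2% of genes called lower, 26.7% higher) 5 of 12 tested tight junction genes were lower and 5 higher, with a median of 1.08. In nuclear RNA (23.1% lower, 22.3% higher) 5 were lower and 2 higher, with a median of -0.23. Desmosome medians were -1.22 in cytosol and -2.06 in nuclear RNA, and adherens junction medians -1.09 and -1.78.

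All 7 tested epithelial regulators were lower in H1299, including the ETS factor ELF3 (-8.58), as were 10 of 12 surface and polarity genes, including ST14 (-7.46), which encodes the membrane protease matriptase. Among 6 repressors of epithelial genes, 3 were higher: ZEB1 had 110 reads in H1299 vector and 0 in HBE NC mRNA, at least 42.5-fold higher, ZEB2 had 183 and 1, and TWIST1 had 140 and 1. SNAI2, which encodes Slug, was lower in H1299 (log2 fold -3.65, with 5 reads in H1299 and 79 in HBE). In cytosol 3 of the 6 repressors were higher and 3 lower, and in nuclear RNA 3 of 5 tested were higher and 1 lower.

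The nuclear contrast set nuclear over cytosol RNA of the same cells. In HBE the messages of CDH1, DSP and EPCAM had the highest nuclear over cytosol values of the 9. CDH1 had 859 nuclear and 21 cytosol reads in FLII knockdown cells, and 590 nuclear and 16 cytosol reads in NC cells. Its log2 fold was 4.46 (interval 3.86 to 5.18) with knockdown and 4.32 (interval 3.64 to 5.17) in NC cells. DSP had 2492 nuclear and 115 cytosol reads with knockdown (3.56, interval 3.29 to 3.85), and 2029 and 111 in NC cells (3.34, interval 3.07 to 3.63). EPCAM had log2 folds of 2.98 (interval 2.69 to 3.29) with knockdown and 2.96 (interval 2.66 to 3.30) in NC cells.

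The claudins and JUP did not share this. CLDN4 had log2 folds of 0.68 with knockdown and 0.81 in NC cells, and CLDN7 0.77 and 0.81, short of a 2-fold difference. JUP lay on the cytosol side, at -0.64 and -0.52. ESRP1 had 1.31 and 0.96, GRHL2 1.14 and 0.86, and OCLN 0.92 and 1.36. With knockdown 5 of 9 genes were called higher in nuclei (CDH1, EPCAM, DSP, ESRP1, GRHL2; 23.9% of genes called higher), and in NC cells 4 of 9 (CDH1, EPCAM, DSP, OCLN; 22.8%). With both HBE groups in 1 fit and the group as a block, edgeR's quasi-likelihood test called CDH1 (4.34), DSP (3.37), EPCAM (2.89), ESRP1 (1.06) and OCLN (1.02) higher in nuclei, with adjusted p-values of at most 0.000475 (19.8% of genes called higher). That fit had 2 residual degrees of freedom, so its spread was largely taken from the trend over genes.

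The scaling sets where zero lies. With total counts in place of TMM the median of all genes was 0.73 with knockdown and 0.66 in NC cells, beside 0.18 and 0.14 with TMM. Of the 9 genes 8 were then called higher in each. Over all genes 4916 of 12102 were then called higher with knockdown and 4580 of 11809 in NC cells. The share of all calls on the nuclear side became 87.5% and 88.3%, beside 57.5% and 57.3% with TMM. On deposited RPKM, the nuclear to cytosol ratio of JUP was 0.945 with knockdown and 1.01 in NC cells, and that of CDH1 32.8 and 29.7. As a share of whole-cell mRNA RPKM, HBE cytosol held 1.39% of CDH1 with knockdown and 1.12% in NC cells, 2.29% and 1.84% of DSP, and 8.34% and 7.70% of EPCAM. They were 22.3% and 11.8% for OCLN, 11.1% and 13.1% for ESRP1, and 17.3% and 23.7% for GRHL2. The same shares were 86.8% and 74.2% for CLDN7, 74.4% and 65.5% for JUP, and 57.0% and 52.6% for CLDN4. Each share is of relative levels within polyA libraries, not of molecules, and how the fractions were separated is not given.

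Transcript length and GC content moved with this contrast over all genes. In HBE NC the median log2 fold was -0.48 for transcripts under 2 kb and 1.02 for those of 8 kb or more, and 0.93 below 42% GC and -0.93 at 60% GC or more. CDH1 (4815 bases, 48.6% GC) lay 3.99 above the median of its class of like length and GC in NC cells, and EPCAM (1718 bases, 47.0% GC) 2.55 above. CLDN4 (1823 bases, 60.5% GC) lay 2.02 above its class, DSP (9730 bases, 47.9% GC) 1.99 above and CLDN7 (2009 bases, 56.0% GC) 1.30 above. By contrast JUP (61.5% GC) lay 0.35 above its class, GRHL2 0.52, ESRP1 0.26 and OCLN (39.9% GC) 0.17. With knockdown the same 5 genes lay 1.33 (CLDN7) to 4.10 (CDH1) above their classes, while the other 4 lay between -0.29 (OCLN) and 0.78 (GRHL2). Of those 5 genes, all but DSP encode membrane proteins; OCLN does too, and lay near its class median.

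**Figure D4:**
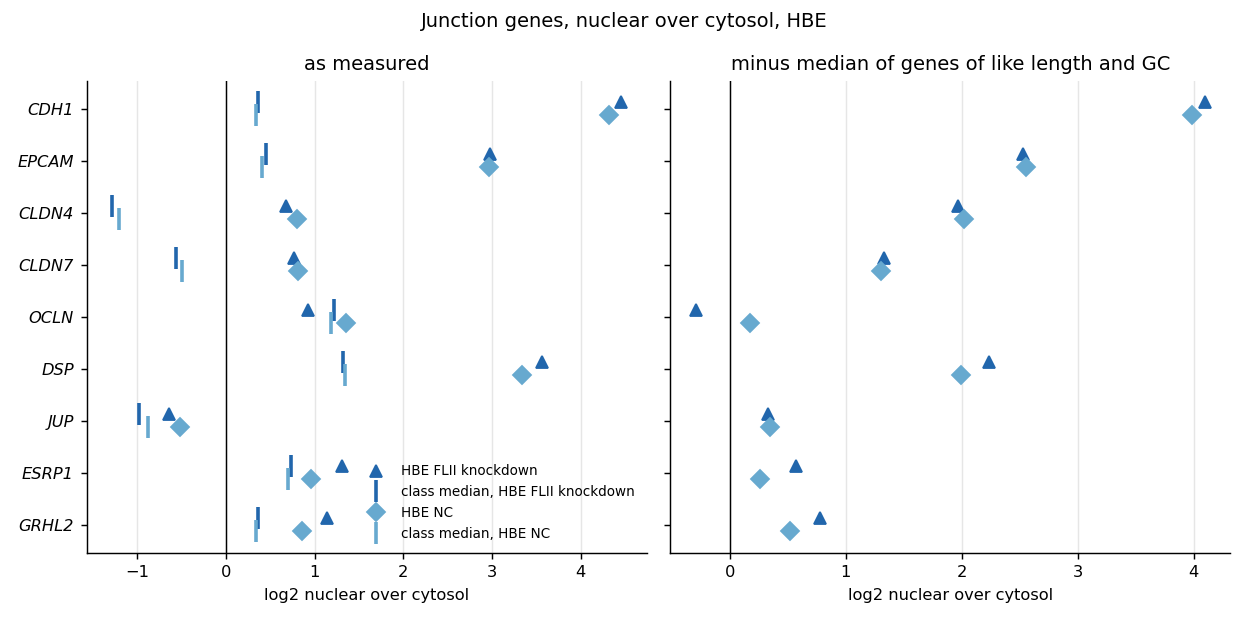
Log2 nuclear over cytosol in HBE for each gene, as measured with the median of genes of like length and GC (vertical ticks, left), and after that median is subtracted (right); triangles are FLII knockdown and diamonds NC. CDH1 has the highest value in both panels, at 4.46 and 4.32 on the left, and CLDN4 moves up to 1.97 and 2.02 on the right.

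Other junction genes in HBE NC were read from the same lists, where 22.8% of genes were called higher in nuclei. Of 10 tested desmosome genes 8 were called higher, with DSG3 at 3.10 and PPL, encoding periplakin, at 2.85. Of 13 tight junction genes 7 were higher, led by cingulin, CGN (4.28), and TJP3 was lower (-1.03). Of 10 adherens junction genes 6 were higher, with VCL at 2.90 and beta-catenin, CTNNB1, at 1.46. List medians were 1.82, 1.28 and 1.23, beside 0.96 for the 9 genes and 0.14 over all genes. After the medians of like length and GC were subtracted, 5 desmosome, 6 tight junction and 4 adherens junction genes were called higher. Over all genes 1564 were then called higher, beside 2692 before.

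In H1299 the low counts left 5 of the 9 genes testable with FLII overexpression and 4 with vector. With FLII overexpression CLDN7 had 3 nuclear and 58 cytosol reads (log2 fold -4.60, interval -7.18 to -3.24), JUP 47 and 110 (-1.80) and CLDN4 43 and 76 (-1.40). These 3 were called lower in nuclei, where 18.3% of genes were, as were KRT5 (-4.66) and KRT17 (-4.12). With total counts CLDN4 was not called and OCLN was called higher in nuclei. After the median of like length and GC was subtracted, CLDN4 lay at -0.04 and JUP at -0.70, neither called, while CLDN7 (-4.03) and DSP (-1.45) were called lower. Over all genes 1035 were then called lower, beside 2339 before. With vector DSP alone was called, 37 nuclear and 15 cytosol reads (1.50, interval 0.63 to 2.503), where 14.8% of genes were called higher. After the median of like length and GC was subtracted, DSP in vector cells lay at 0.85, short of a 2-fold difference, and CLDN4 at 1.45. OCLN had 223 nuclear and 98 cytosol reads with FLII overexpression (0.60), and 208 and 151 with vector (0.69). The blocked fit over both H1299 groups called CLDN7 (-3.33), CDH1 (-2.19) and JUP (-1.05) lower, with edgeR adjusted p-values of at most 0.0126 (14.1% of genes called lower). However, CLDN7 stood at -4.60 with FLII overexpression and -0.24, untested, with vector, and JUP at -1.80 and -0.42. CDH1 was untested in both pairs, with 3 nuclear and 9 cytosol reads with FLII overexpression and 0 and 2 with vector.

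The FLII contrast set overexpression over vector in H1299 and knockdown over NC in HBE. In HBE, where all 9 genes were well counted in mRNA, none passed a 2-fold difference in mRNA, cytosol or nuclear RNA. In mRNA 4.95% of genes were called in either direction, in cytosol 1.25% and in nuclear RNA 0.873%. DSP had 5724 reads with knockdown and 8429 in NC cells in mRNA, a log2 fold of -0.55 (interval -0.60 to -0.50), and CLDN7 had 2516 and 3420 reads (-0.43, interval -0.51 to -0.36). CDH1 (-0.20), EPCAM (-0.21) and JUP (-0.15) also had intervals below 0, while CLDN4, OCLN, ESRP1 and GRHL2 had intervals that held 0. This split rests on the scaling. With total counts only DSP and CLDN7 had intervals below 0, those of CDH1, EPCAM, JUP and OCLN held 0, and those of CLDN4 (0.09), ESRP1 (0.19) and GRHL2 (0.20) lay above 0. The median of all genes was then 0.14, beside 0.01 with TMM, and 57.9% of all calls were higher, beside 40.8%.

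In nuclear RNA CDH1 had 859 reads with knockdown and 590 in NC cells (log2 fold 0.35, interval 0.20 to 0.50), ESRP1 465 and 334 (0.28, interval 0.08 to 0.49) and OCLN 98 and 61 (0.49, interval 0.01 to 0.98). DSP stood at 0.10 and CLDN7 at -0.13 (interval -0.18 to -0.08). In cytosol CLDN4 had a log2 fold of 0.19 and JUP 0.15, with intervals above 0, and OCLN, on 28 reads with knockdown and 13 in NC cells, had 0.91 (interval -0.06 to 2.01). The intervals cover counting error only, so these shifts were not set against the spread between cultures, and the difference between fractions was not tested. In HBE mRNA the mesenchymal cadherin CDH2 had 306 reads with knockdown and 59 in NC cells (2.37), while VIM had 23 and 49 and was called lower (-1.07). CDH2 was not called in HBE nuclear RNA, with 142 and 102 reads (0.28, interval -0.09 to 0.67). In HBE cytosol CDH2 had 10 and 6 reads and was not tested. Among the pathway lists in HBE mRNA, 1 of 10 adherens junction genes was called lower, the nectin PVRL1 (-1.06). Of 13 tight junction genes 1 was lower, the tricellular junction gene LSR (-1.25). So were 2 of 7 tested epithelial regulators, the transcription factors GRHL1 (-1.24) and OVOL1 (-1.05). None was lower among 10 desmosome, 12 surface and polarity and 2 repressor genes tested. In HBE mRNA 370 of all 12635 genes tested were called lower. No list gene was called higher there, and in HBE cytosol no list gene was called in either direction. In HBE nuclear RNA 1 of 12 surface and polarity genes was called, the polarity gene PARD6B, higher (1.02; 33 reads with knockdown, 14 in NC cells).

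In H1299 mRNA 0 of 5 testable genes were called (0.798% of genes called in either direction), and in nuclear RNA 0 of 4 (0.599%). OCLN, the member best counted there, had 201 reads with overexpression and 165 with vector in mRNA (-0.19, interval -0.49 to 0.12), and 223 and 208 in nuclear RNA (0.03, interval -0.25 to 0.31). JUP had -0.20 (interval -0.55 to 0.15) in mRNA. CDH1 had 11 and 9 mRNA reads, so a 2-fold difference in either direction lay inside its interval of -1.59 to 1.27. Called lower in that mRNA contrast were KRT5 (11 reads with overexpression and 23 with vector, -1.49), KRT17 (53 and 128 reads, -1.73) and 2 of 9 tested surface and polarity genes, ST14 among them (9 and 22 reads, -1.70).

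H1299 cytosol differed. CLDN7 had 58 reads with overexpression and 7 with vector (log2 fold 3.58, interval 2.56 to 5.07), DSP 39 and 15 (1.98, interval 1.13 to 2.99) and CLDN4 76 and 35 (1.74, interval 1.17 to 2.38). These 3 of 5 testable genes were called higher, where 1.04% of genes were; JUP (0.72) and OCLN (0.02) were not. Some HBE-type genes moved with them: KRT5 had 145 and 10 reads (4.42), KRT17 448 and 43 (4.00), CDH3 35 and 5 (3.30) and ST14 51 and 5 (3.83). Of tested list genes, 4 of 10 surface and polarity genes and 1 of 9 adherens junction genes were called higher. Called in neither direction were 12 tight junction, 8 desmosome and 2 epithelial regulator genes, all that were tested. Among 5 tested repressors 1 was called higher and 1 lower. The median basal marker stood at 2.52% of HBE NC cytosol with overexpression and 0.189% with vector, all 10 markers had reads in both, and their summed level was 2.43% and 0.998%. On the same scale CLDN7 stood at 3.03% of HBE NC cytosol with overexpression and 0.246% with vector. CLDN4 stood at 8.05% and 2.501% in those libraries, and DSP at 33.3% and 8.63%. These shares are of HBE NC cytosol levels of 153 RPKM for CLDN7, 82.9 RPKM for CLDN4 and only 1.93 RPKM (111 reads) for DSP. In both libraries CLDN4 and DSP lay further above the median basal marker than CLDN7 did. The part of HBE-type transcripts in these calls was not tested.

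**Figure D5:**
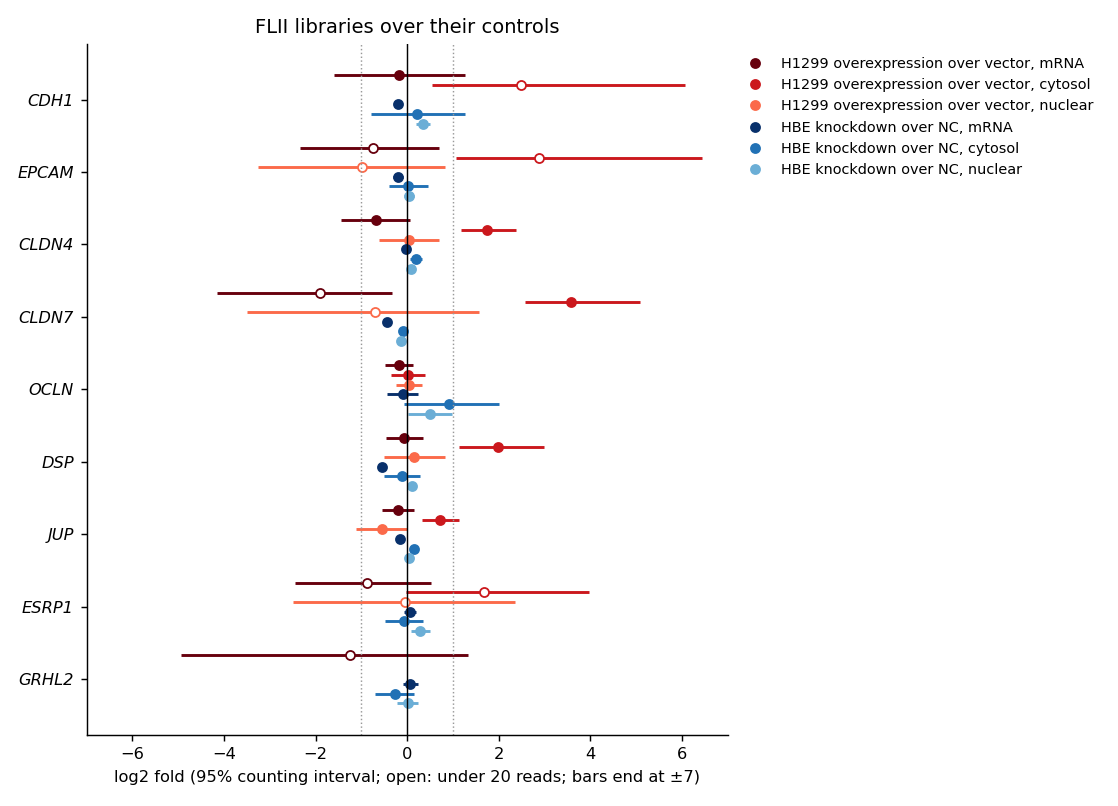
Log2 fold of FLII overexpression over vector in H1299 (reds) and of FLII knockdown over NC in HBE (blues) for each gene outside RNC, with 95% counting intervals; dotted lines mark a 2-fold difference, and genes with 3 reads or fewer on both sides are left out. HBE values lie within a 2-fold difference, and the called values are those of CLDN7, DSP and CLDN4 in H1299 cytosol, at 3.58, 1.98 and 1.74.

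Between RNC labels the genes moved as the keratins did. CLDN7 had 13007 reads under the RNC label H1299 FLII overexpression and 9 under the label vector, and 10 under the label HBE FLII knockdown and 9077 under the label HBE NC. CLDN4 had 11971 and 121 reads in the libraries with H1299 labels and 187 and 5464 in those with HBE labels. In the overexpression label all 9 genes were called, 8 higher and OCLN lower (-1.73), where 49.0% of genes were called in either direction, and in the knockdown label 7 were lower, all but DSP and OCLN (11.7% called lower). The H1299 vector label over the HBE NC label gave 8 lower (32.8% called lower) and OCLN at 0.06. Whether RNC libraries were exchanged was not tested, and no effect of FLII on ribosome association is drawn from them.

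Likeness to the mean pattern of the 9 genes was measured over the 16 libraries as the root-mean-square distance of centred log2(CPM + 1) profiles, among 11719 genes at 10 CPM or more in some library. Of the 9, ESRP1 (0.38), GRHL2 (0.52) and EPCAM (0.56) lay nearest to it, and CLDN7 (1.95) and OCLN (2.77) farthest. The nearest genes outside the 9 were GALNT12 (0.32), IL1A (0.33), SERPINB5 (0.36), HS6ST2 (0.37) and BDKRB2 (0.40). IL1A, which encodes interleukin-1 alpha, had 2 reads in FLII overexpression and 1 in vector H1299 mRNA, against 430 in FLII knockdown and 796 in NC HBE mRNA. SERPINB5, which encodes maspin, had 0 and 1 reads in those H1299 libraries, against 583 and 425 in those HBE libraries.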

How the data were processed

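Per the file headers, the deposited files list 23709 RefSeq genes with length, read count and RPKM. The authors' deposited counts are whole numbers, and the deposited RPKM equals the count scaled to length and library total, as checked on the values. The submitters' processing notes name GRCh37 and hg19; aligner and counting tool: not given in the sources used here. Sample titles gave the groups.

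Counts of 2 libraries at a time were scaled by TMM (edgeR 4.0.16, R 4.3.3), 0.5 reads were added, and genes reaching 20 reads in sum over both were tested. A call needed a fold of at least 2 and a 95% exact conditional binomial (Clopper-Pearson) interval that excluded a fold of 1 (Python 3.11.15, scipy 1.17.1). Calls ran over all genes in 16 comparisons and were tested on simulated data. Counts do not show PCR duplicates; intervals and the floor of 3 counts cover counting error only. P-values come from 2 added edgeR quasi-likelihood fits (Benjamini-Hochberg over all genes), which take the FLII groups of a line as its samples: 12 libraries outside RNC for the lines, and 8 cytosol and nuclear libraries with the cell group as a block. They measure the spread between these libraries only.

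The 9 genes, 6 pathway lists and marker lists were chosen with earlier results of these data known. All 9 genes are named, with up to 3 called genes per list whose interval bounds lay farthest from 0, and the 5 genes nearest in pattern; KRT5, KRT17, VIM and CDH2 were added for context, and a list gene that the rule names is not reported here. Alternatives were total counts, DESeq2 1.42.0 median of ratios, at least 1 or 100 reads, 5 reads added, deposited RPKM with 1 added, and a fold of 1.5. Added after seeing the data were the other H1299 or HBE library in the line contrast, and subtraction of length or GC class medians (GC from GENCODE transcripts, for 98.5% to 98.9% of genes). Of the 9 genes, 5 had a RefSeq promoter window used here.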

Additional observations from a re-analysis of the deposited data

How the results depend on the processing

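The line calls in mRNA, nuclear RNA and cytosol kept their direction under every alternative; in mRNA the same 8 genes were called each time. The share of all line calls on the H1299 side was 48.7% in mRNA with TMM and 59.8% with total counts, 54.5% and 71.7% in cytosol, and 49.1% and 59.6% in nuclear RNA. The RNC line calls (8 genes) became 3 with the library labelled H1299 FLII overexpression, where CLDN4 (1.54), CLDN7 (0.93), JUP (0.62), ESRP1 (0.34) and GRHL2 (0.80) turned positive, and 4 with the one labelled HBE FLII knockdown. Nuclear over cytosol calls in HBE NC (4) became 8 with total counts, 7 with RPKM and 8 at a fold of 1.5. In HBE FLII knockdown (5) they became 8 with total counts and 9 at a fold of 1.5, where JUP (-0.64) was called on the cytosol side. In H1299 FLII overexpression (3) they became 5 at 1 read, 1 with RPKM and 1 with the GC class median subtracted. In H1299 vector (1) they became 2 with total counts, at a fold of 1.5 or with the GC class subtracted, and 0 at 100 reads, with RPKM or with the length class subtracted, and 3 (CDH1, CLDN7 and JUP, lower) in the blocked edgeR fit. FLII overexpression calls became 1 (CLDN7, lower) in mRNA at 1 read, 5 in cytosol at 1 read, 1 in cytosol at 100 reads, and 5 of 9 in RNC with RPKM. FLII knockdown kept its counts of junction genes called within 1.5 times under every alternative. The causes were not tested beyond what each setting removes. Counts of all genes called moved by over 1.5 times in 39 of 139 repeats. For FLII overexpression in H1299 mRNA (104) they ran from 4 at 100 reads to 243 at a fold of 1.5, and for FLII knockdown in HBE mRNA (625) from 306 at 100 reads to 1639 at a fold of 1.5. For nuclear over cytosol in HBE NC (4695) they were 5189 with total counts, 3418 with RPKM and 6833 at a fold of 1.5. In HBE FLII knockdown (5022) they were 5618 with total counts and 7210 at a fold of 1.5. The labels give no replicate numbers to pair samples by; the edgeR fits over both FLII groups, chosen after seeing the data, otherwise kept the counts of junction genes called within 1.5 times. Counts limit CDH1, EPCAM, CLDN7, ESRP1 and GRHL2 in H1299, where several libraries hold under 10 reads.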
